A study of Homo sapiens with 12 samples.

Results

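The FOS, JUN and EGR genes encode the best known immediate-early transcription factors, and the 10 members described here were FOS, FOSB, FOSL1, FOSL2, JUN, JUNB, JUND, EGR1, EGR2 and EGR3. They were taken by gene name from a table of 58735 genes. The set was chosen on the measured values, because FOS and EGR1 were lower with TNF-α than in medium, so every value of TNF-α against medium is given here as a description and carries no test. RNA was measured in NCM460, a human cell line labelled as normal colonic epithelium, in 12 libraries, 3 in each of 4 groups. The groups were wild-type cells in medium, wild-type cells with TNF-α (an inflammatory cytokine), wild-type cells with both TNF-α and 5-OH-TMT (called Bufotenidine in the sample labels), and HTRA2-knockdown cells with TNF-α. HTRA2 is a mitochondrial serine protease. The labels give no dose or time, do not name a control siRNA for the TNF-α libraries, and do not say whether the knockdown libraries came from 1 siRNA or several. Nothing says that the 3 libraries of a group came from separate cultures, so the p-values measure the spread between these libraries, which may be technical.

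FOS and JUN proteins pair through leucine zippers to form AP-1, a dimer that binds a short palindromic DNA element, whereas the JUN proteins can also pair with each other. EGR proteins are zinc finger factors that bind GC-rich elements. Growth factors, cytokines and stress raise transcription of many of these genes within minutes through MAP kinases and the serum response factor SRF, and the transcripts are short-lived. FOSL1, FOSL2 and JUND are in general less transient than FOS and EGR1.

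The libraries held 31008429 to 37624399 reads on genes, which sets the depth behind each value. Levels are FPKM, fragments per kilobase of gene length scaled to sequencing depth, so they can be compared between genes, and 3 reads in a gene of 1 kb correspond to 0.0805 to 0.0962 FPKM. All 5 epithelial markers (such as EPCAM and KRT8) were above 1 FPKM in every group, with a summed level of 2117.87 to 2689.38 FPKM. None of 5 intestinal markers reached a group mean of 1 FPKM, and CDX2, an intestinal identity factor, was at 0 in all 12 libraries. The 5 immune markers summed to at most 0.124 FPKM, with CD3E at 0. The 5 fibroblast markers summed to 2.62 to 3.24 FPKM in the knockdown and 0.974 to 1.46 FPKM elsewhere, with DCN at 0. COL1A1 was the only one of them with a mean of at least 1 FPKM. The 3 endothelial markers summed to 0.491 to 0.597 FPKM in medium and 1.42 to 1.57 FPKM under TNF-α. Their sums were 1.77 to 2.01 FPKM when the compound was added and 2.21 to 3.62 FPKM in the knockdown. Of these, CDH5 ran from 0.292 to 3.34 FPKM over the 12 libraries, and PECAM1 and VWF were at 0.182 FPKM or less. The part of the fibroblast and endothelial shifts in the results was not tested. HTRA2 itself was at 7.44, 7.18 and 7.22 FPKM in the knockdown libraries and at 15.4, 13.96 and 14.2 FPKM with TNF-α, 50.2% of the level. Knockdown replicate 2 stood apart from its group: a chi-squared statistic of its reads against each of the other 2, divided by the degrees of freedom, was 35.0 and 45.4, against 7.35 to 26.8 for the other pairs of replicates, and its mitochondrial share was the lowest (2.95%). Results that depend on it are given with and without it.

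Promoters of 8 members were found in RefSeq (GRCh38.p14), in 10 windows of 250 bases before the annotated start, 3 of them for EGR2. FOSL1 and EGR3 had no window. The JUN window lay wholly within GENCODE 29 exons (250 bases), so by that annotation it is transcribed sequence. The windows of FOS, FOSL2 and FOSB shared 54, 35 and 1 bases with such exons. A CArG box, the binding element of SRF, occurred in 2 of the 10 windows, those of EGR1 and of 1 of the 3 EGR2 starts, on either strand, against 1.16% of the 35116 windows of the same length. These 2 are shown because they hold a CArG box and are free of GENCODE 29 exons, with the CArG boxes in capitals. Levels of RNA played no part in this choice. The EGR1 window lies at chr5:138465229-138465478 on the plus strand, and the EGR2 window at chr10:62816367-62816616 on the minus strand, inside the long EGR2 gene model.

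EGR1: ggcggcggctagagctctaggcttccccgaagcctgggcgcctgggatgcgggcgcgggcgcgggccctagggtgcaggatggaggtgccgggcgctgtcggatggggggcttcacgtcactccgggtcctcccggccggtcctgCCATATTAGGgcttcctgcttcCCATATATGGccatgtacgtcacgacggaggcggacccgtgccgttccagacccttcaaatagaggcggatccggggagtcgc

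EGR2: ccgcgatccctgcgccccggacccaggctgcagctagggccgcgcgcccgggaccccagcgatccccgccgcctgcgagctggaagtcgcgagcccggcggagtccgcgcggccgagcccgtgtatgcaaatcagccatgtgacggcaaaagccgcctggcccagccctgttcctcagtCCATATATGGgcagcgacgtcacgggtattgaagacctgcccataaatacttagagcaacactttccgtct

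EGR1 held 2 CArG boxes, at bases -105 to -96 and -83 to -74 from the start, and EGR2 held 1, at -71 to -62. The second EGR1 box and the EGR2 box have the same letters. Of the other motifs searched on both strands, TATAAA occurred in the FOS, FOSB and JUNB windows at -33 to -25 (10.7% of all windows hold it), and the cyclic AMP response element TGACGTCA occurred in the JUND window (1.65% of all windows). The AP-1 site TGACTCA (4.20% of all windows), the EGR site GCGTGGGCG (0.72%), the ETS core CCGGAAG (8.52%) and the NF-κB consensus (5.21%) had no match in the 10 windows. A match describes the letters of the window only, and bases further upstream were not searched.

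**Figure D1:**
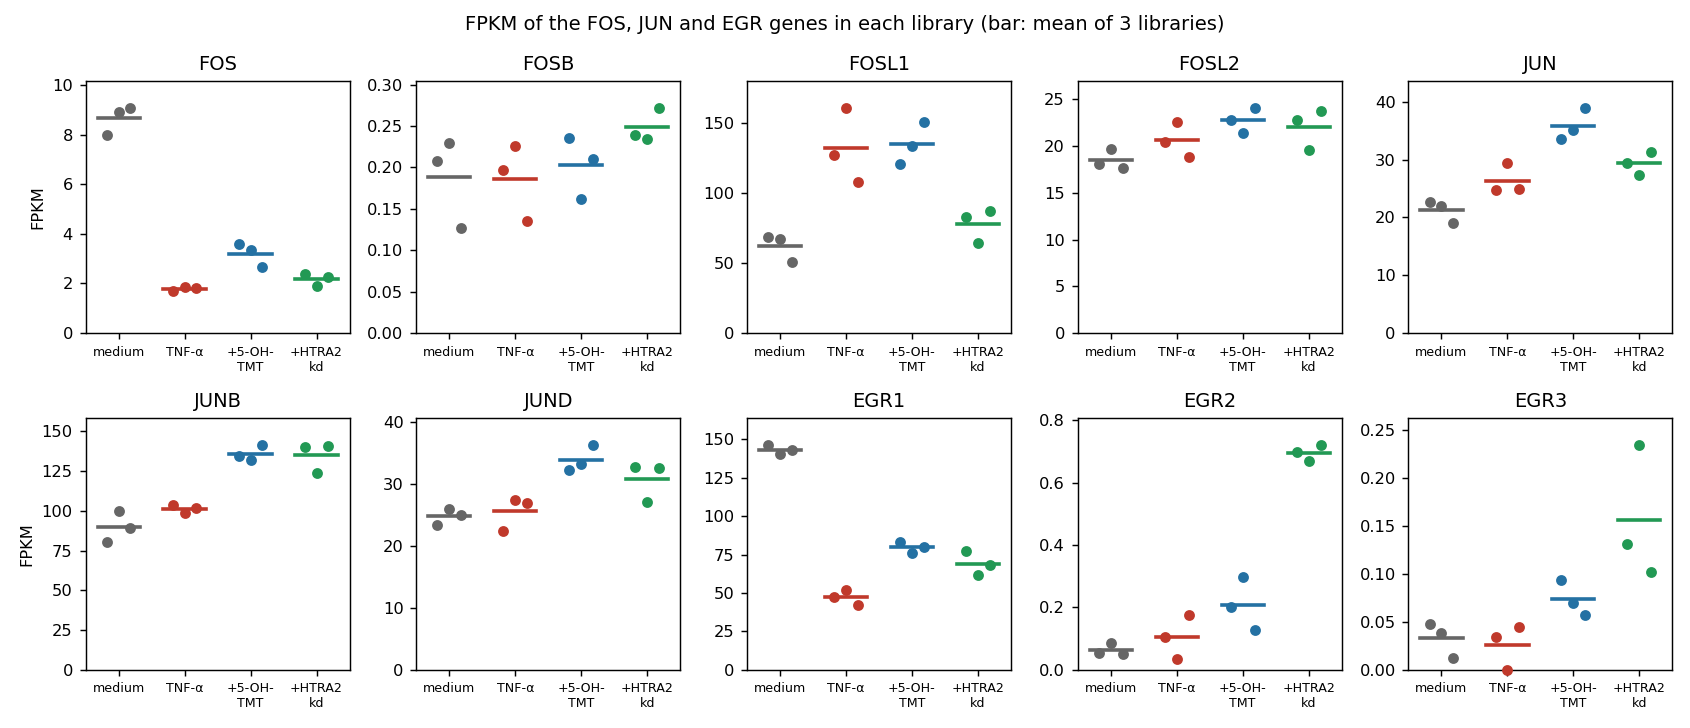
FPKM (vertical axis, linear, from 0, a scale of its own for each gene) of the 10 genes in each of 12 libraries. Points are libraries and bars are the means of the 3 libraries of a group (medium, TNF-α, 5-OH-TMT added to TNF-α, HTRA2 knockdown with TNF-α). FOS and EGR1 are highest in medium, FOSL1 is highest in the groups TNF-α and 5-OH-TMT, and EGR2 is highest in the knockdown at 0.669 to 0.721 FPKM.

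Among the FOS genes, FOS itself (chr14:75278774-75282230, coordinates of hg38) was at 7.98, 8.92 and 9.08 FPKM in medium and at 1.69, 1.84 and 1.82 FPKM with TNF-α. It was at 3.57, 3.34 and 2.64 FPKM with 5-OH-TMT added and at 2.39, 1.90 and 2.25 FPKM with HTRA2 knocked down. The groups did not overlap anywhere in the order medium, 5-OH-TMT, knockdown, TNF-α. As shares of the medium mean, the levels were 20.6% under TNF-α, 36.8% once 5-OH-TMT was added and 25.2% in the knockdown. In bulk RNA, a lower level in each cell and fewer cells expressing the gene cannot be told apart.

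FOSL1 (FRA-1, chr11:65892049-65900573), a FOS relative that lacks the transactivation domain of FOS, went the other way with TNF-α. It was at 68.5, 67.4 and 50.6 FPKM in medium and at 127.2, 160.8 and 107.8 FPKM with TNF-α. It was at 120.7, 133.4 and 150.7 FPKM with 5-OH-TMT and at 83.3, 64.1 and 86.9 FPKM in the knockdown. The TNF-α and 5-OH-TMT libraries overlapped, and so did the knockdown and medium libraries, while each of the first pair lay above each of the second.

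FOSL2 (FRA-2, chr2:28392448-28417312) ranged from 17.6 to 24.1 FPKM over the 12 libraries. Its group means were 18.5 ± 1.11, 20.7 ± 1.87, 22.8 ± 1.33 and 22.1 ± 2.17 FPKM (SD, n = 3) in medium, TNF-α, 5-OH-TMT and knockdown, with overlap between all neighbouring groups. FOSB (chr19:45467995-45475179) was close to the detection limit, with 23 to 55 reads and 0.127 to 0.272 FPKM in a library. Its 3 knockdown libraries (0.240, 0.235 and 0.272 FPKM) lay above the 3 TNF-α libraries (0.196, 0.225 and 0.135 FPKM).

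Among the JUN genes, JUNB (chr19:12791496-12793315), in many settings a weaker activator than JUN, was the most abundant. It was at 80.6, 100.1 and 89.0 FPKM in medium and at 103.7, 98.4 and 101.9 FPKM with TNF-α. It was at 134.3, 132.2 and 141.6 FPKM with 5-OH-TMT and at 140.0, 124.1 and 140.6 FPKM in the knockdown. Both of the last groups lay wholly above the first ones and overlapped each other. JUNB shares 259 exon bases with HOOK2 on the opposite strand, whose reads cannot be told apart without strand, and HOOK2 itself was at 8.02 FPKM or less.

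JUN (chr1:58780788-58784327), the founding AP-1 subunit, was at 22.8, 22.0 and 19.0 FPKM in medium, at 24.8, 29.5 and 24.9 FPKM under TNF-α, at 33.6, 35.1 and 38.9 FPKM once 5-OH-TMT was added, and at 29.5, 27.4 and 31.4 FPKM in the knockdown. The 5-OH-TMT libraries were the highest and overlapped no other group, and TNF-α overlapped the knockdown. JUND (chr19:18279760-18281622), the JUN gene with the steadiest expression in most tissues, was at 23.4, 26.0 and 25.03 FPKM in medium, at 22.5, 27.5 and 27.0 FPKM under TNF-α, at 32.3, 33.3 and 36.4 FPKM once 5-OH-TMT was added, and at 32.8, 27.1 and 32.6 FPKM in the knockdown. Only the 5-OH-TMT libraries lay above every medium and TNF-α library, since knockdown replicate 2 fell within the TNF-α range.

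Among the EGR genes, EGR1 (chr5:138465490-138469315) dominated. It was at 146.6, 140.3 and 143.1 FPKM in medium and at 47.3, 52.2 and 42.1 FPKM with TNF-α. It was at 83.2, 75.9 and 79.9 FPKM with 5-OH-TMT and at 77.3, 61.9 and 68.1 FPKM in the knockdown. Medium was the highest group and TNF-α the lowest without overlap, and the other groups overlapped each other between them. The means were 32.9% of medium under TNF-α, 55.6% once 5-OH-TMT was added and 48.2% in the knockdown.

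EGR2 (chr10:62811996-62919900), a factor known from peripheral nerve myelination and from T cells, was scarce outside the knockdown. It had 7, 10 and 6 reads in medium, 14, 4 and 24 under TNF-α, and 26, 39 and 17 once 5-OH-TMT was added. In the knockdown it had 93, 89 and 97 reads, or 0.699, 0.669 and 0.721 FPKM, which overlapped no other library. EGR3, a relative of EGR2 on chromosome 8 (22687659 to 22693302), had 8, 6 and 2 reads in medium, 6, 0 and 8 under TNF-α, 16, 12 and 10 once 5-OH-TMT was added, and 23, 41 and 18 in the knockdown. The order of its last 3 groups held without overlap, at counts where a few reads matter, and EGR3 shares 164 exon bases with a transcript on the opposite strand listed at 0.304 FPKM or less.

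TNF-α against medium, the contrast that chose the set, moved 3 of the 9 members above the filter (a mean of at least 0.1 FPKM) by 2-fold or more in the fit. These were FOS with a log2 fold change of -2.21 ± 0.12 (SE), EGR1 with -1.61 ± 0.09 and FOSL1 with 1.08 ± 0.17. Over all 18079 genes above the filter, 4.97% passed that size, and nothing is read from the comparison because the rule used it. JUN differed by 0.31, EGR2 by 0.27, JUNB by 0.18, FOSL2 by 0.16, JUND by 0.04 and FOSB by -0.01 on the same scale. EGR3, below the filter, had a mean of 0.0720 FPKM over the 12 libraries.

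Adding 5-OH-TMT to TNF-α was compared with TNF-α alone, to see what the compound changes in stimulated cells. All log2 fold changes are from log2(FPKM + 0.1), which understates the change of low genes such as EGR2. FOS and EGR1, which the rule used through the same TNF-α libraries, are described only: FOS was higher by 0.79 ± 0.12 and EGR1 by 0.76 ± 0.09 (log2, SE), 1.78 and 1.69 times the TNF-α mean, in every library. The 3 JUN genes lay above TNF-α in every library, JUN by 0.44 ± 0.10, JUNB by 0.42 ± 0.08 and JUND by 0.41 ± 0.10.

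None of the JUN genes passed limma's test across all genes with Benjamini-Hochberg adjustment at 0.05. The adjusted p was 0.0853 for JUN, 0.0748 for JUNB and 0.0951 for JUND. No member of the 7 tested was called, and 3 had an unadjusted p under 0.05, against 20.1% of all genes. Voom on recovered reads called 3 members among 373 genes, a filter at a mean of 1 FPKM called 2 among 127, and a fit to these groups alone called 2 among 911. In the background, 0.0332% of genes were called higher and 0.00553% lower, a total of 7 genes, and 16.3% of genes were higher and 15.5% lower without overlap, against 3 and 0 of the 7 members. A DEG was a gene changed 2-fold or more whose p before adjustment was 0.05 or less, and none of the 7 was one, against 1.50% of genes. The JUN calls also changed without knockdown replicate 2, which enters this contrast only through the shared spread. The adjusted p by limma was then 0.0395 for JUN, 0.0298 for JUNB and 0.0395 for JUND. That fit called 551 genes in all. Without medium replicate 2, JUNB alone was called (adjusted p = 0.0392).

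The other tested members moved less or were measured less well. FOSL1 differed by 0.05 with a 95% confidence interval of -0.32 to 0.41, FOSL2 by 0.14 (-0.06 to 0.34) and FOSB by 0.09 (-0.48 to 0.66). EGR2 differed by 0.62, with an interval of -0.07 to 1.31 and an adjusted p of 0.299 by limma, and ran from 0.13 with a pseudocount of 1 to 1.10 with voom and from 0.35 to 0.86 with 1 library left out. EGR3, from a limma fit without the filter, differed by 0.47 (adjusted p = 0.443), with every 5-OH-TMT library above every TNF-α library.

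**Figure D2:**
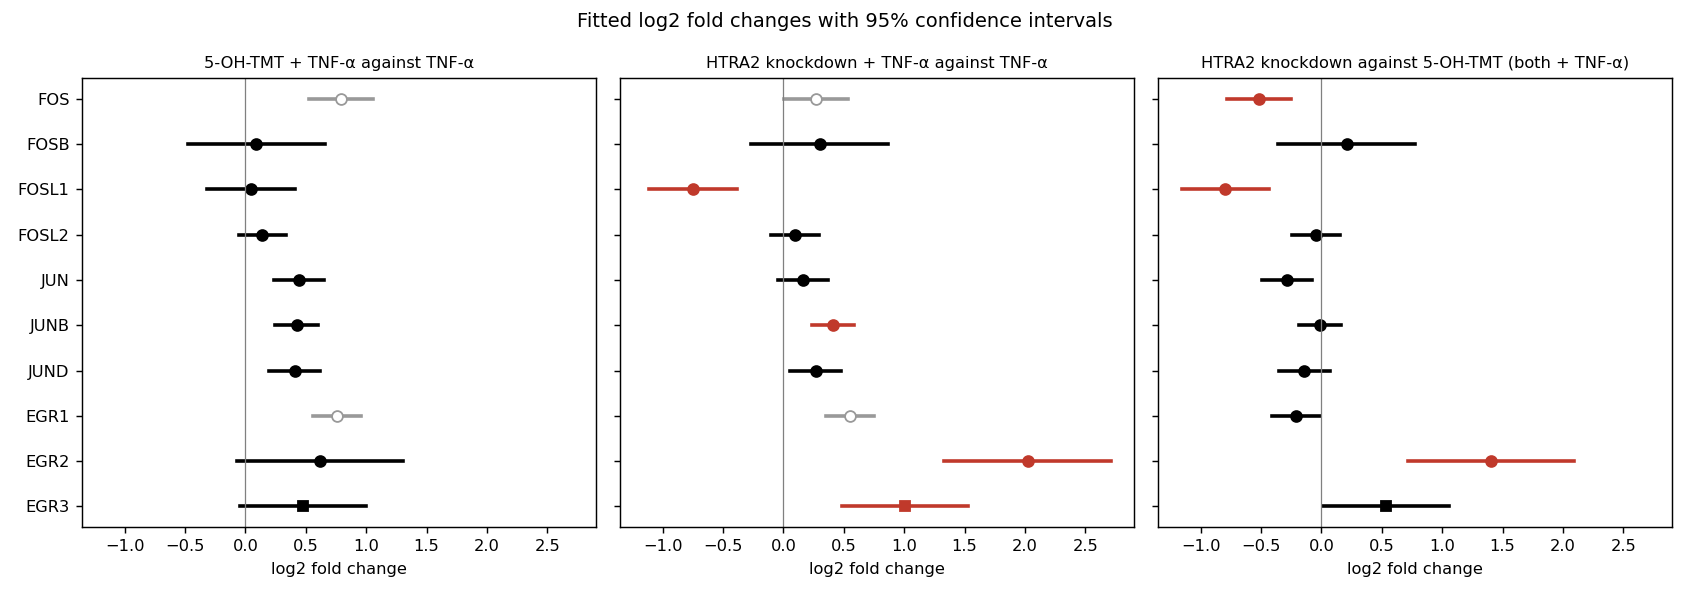
Fitted log2 fold change (horizontal axis) with its 95% confidence interval for each gene (rows) in the 3 comparisons. Red marks an adjusted p under 0.05, open grey circles mark FOS and EGR1 where they are described without a test, and squares mark EGR3, taken from the fit without the filter. EGR2 stands at 2.02 in the knockdown against TNF-α, and FOSL1 lies below 0 in both knockdown panels.

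HTRA2 knockdown with TNF-α was then compared with TNF-α alone. No control siRNA is named for the TNF-α libraries, so lower HTRA2 and the siRNA treatment itself cannot be told apart. EGR2 rose, JUNB rose and FOSL1 fell. EGR2 was 6.68 times its TNF-α mean, a log2 fold change of 2.02 ± 0.32 (adjusted p = 0.00109, limma). This size depends on the pseudocount and ran from 0.62 with a pseudocount of 1 to 2.90 with voom, with the call kept in each alternative fit that held the gene. JUNB was 1.33 times its TNF-α mean, a log2 fold change of 0.41 ± 0.08 (adjusted p = 0.00449, limma). FOSL1 was at 59.2% of its TNF-α mean, a log2 fold change of -0.75 ± 0.17 (adjusted p = 0.00873, limma).

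All 3 calls held whichever of the 12 libraries was omitted. Without knockdown replicate 2, EGR2 was at 2.05, JUNB at 0.47 and FOSL1 at -0.61 on the log2 scale. The members called were 2 higher and 1 lower of 7 tested, against 9.35% and 8.08% of all genes. EGR2 was the only DEG of the 7, against 4.23% of genes. FOSB, JUNB and EGR2 were higher and FOSL1 was lower without overlap, against 17.5% and 16.4% of all genes.

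JUND differed by 0.27 ± 0.10, with an adjusted p of 0.0802 by limma that became 0.0209 without knockdown replicate 2 and 0.0450 with quantile normalization. JUN differed by 0.16 (95% confidence interval -0.05 to 0.37), FOSL2 by 0.09 (-0.10 to 0.29) and FOSB by 0.30 (-0.27 to 0.87). EGR3 was at 5.999 times its TNF-α mean and 1.01 ± 0.24 on the log2 scale, with an adjusted p of 0.0247 in the limma fit without the filter. The log2 value ran from 0.17 with a pseudocount of 1 to 3.00 with voom. The call was lost without TNF-α replicate 1 (0.05002), TNF-α replicate 2 (0.0882) or knockdown replicate 1 (0.05011), in a fit to the 2 groups alone (0.124) and with a pseudocount of 0.01 (0.0878), at 0 to 41 reads a library. FOS (0.27 ± 0.12) and EGR1 (0.55 ± 0.09), described only, were higher than with TNF-α in every library.

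The knockdown and 5-OH-TMT libraries, both with TNF-α, were compared directly, and neither group entered the rule. FOSL1 fell by 0.80 ± 0.17 on the log2 scale to 57.8% of the 5-OH-TMT mean (adjusted p = 0.00875, limma). FOS was lower by 0.52 ± 0.12 on the log2 scale, at 68.5% of the 5-OH-TMT mean (adjusted p = 0.0151, limma). EGR2 rose by 1.40 ± 0.32, to 3.34 times the mean (adjusted p = 0.0127, limma), and between 0.49 with a pseudocount of 1 and 1.796 with voom.

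The FOS call depended on single libraries. The adjusted p was 0.0682 without 5-OH-TMT replicate 1, 0.0631 without 5-OH-TMT replicate 2, 0.0532 without knockdown replicate 2, and 0.0720 in a limma fit to these 2 groups alone, with the same direction each time. Of the 9 members tested, 1 was called higher and 2 lower, against 7.85% and 7.43% of all genes. EGR2 was the only DEG, against 3.19%, and 1 member was higher and 3 lower (FOS, FOSL1 and JUN) without overlap, against 18.2% and 17.6%.

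JUN was lower by 0.28 ± 0.10 without passing the test (adjusted p = 0.0643, limma), and the adjusted p was 0.0475 without medium replicate 3, 0.0267 with voom and 0.0436 with a filter at a mean of 1 FPKM. EGR1 differed by -0.21, with a 95% confidence interval of -0.41 to -0.01 and an adjusted p of 0.144 by limma. JUNB differed by -0.01, with an interval of -0.19 to 0.16, FOSL2 by -0.05 (-0.24 to 0.15), JUND by -0.14 (-0.35 to 0.07) and FOSB by 0.21 (-0.36 to 0.78). EGR3 differed by 0.53 in the limma fit without the filter (adjusted p = 0.247).

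The make-up of AP-1 transcripts can be read from FPKM sums within a library. The FOS family summed to 89.5 ± 10.5 FPKM in medium, 154.6 ± 28.7 under TNF-α, 161.1 ± 15.4 when 5-OH-TMT was added and 102.6 ± 14.7 in the knockdown (SD, n = 3). The knockdown sums (85.8 to 113.2 FPKM) lay below each TNF-α and 5-OH-TMT sum (128.6 FPKM or more). FOSL1 made up 69.2% of the sum in medium, 85.2% under TNF-α, 83.7% when 5-OH-TMT was added and 76.0% in the knockdown. FOS made up 9.80%, 1.18%, 2.01% and 2.13%, FOSL2 made up 20.8%, 13.5%, 14.2% and 21.6%, and FOSB was at 0.273% or less in each library.

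The JUN family summed to 135.9 ± 10.99 FPKM in medium, 153.4 ± 2.24 under TNF-α, 205.9 ± 9.53 when 5-OH-TMT was added and 195.2 ± 14.4 in the knockdown. The last 2 groups overlapped each other and lay above each medium and TNF-α library. The division within the family varied less than its sum: JUNB made up 66.0%, 66.1%, 66.1% and 69.1%, JUN 15.1% to 17.4% and JUND 15.8% to 18.3% over the group means. The ratio of the FOS to the JUN family was 0.660 in medium, 1.01 under TNF-α, 0.781 when 5-OH-TMT was added and 0.524 in the knockdown, and the last group lay below each library of the others. EGR1 made up 98.6% or more of the EGR family in each library, and EGR2 reached 1.002% in the knockdown from 0.0441% in medium.

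**Figure D3:**
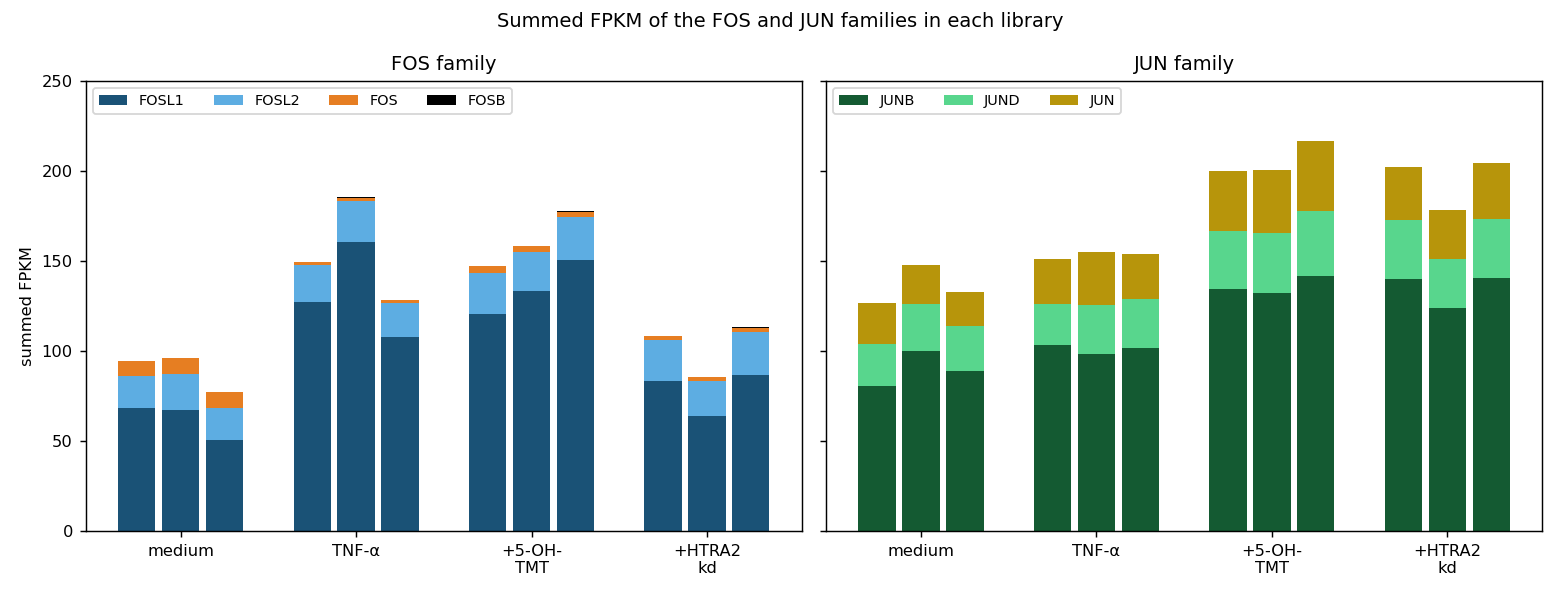
Summed FPKM (vertical axis, linear, from 0) of the FOS family (left) and the JUN family (right), 1 bar per library in order of replicate number, stacked by gene. The FOS family is mostly FOSL1 and is highest with TNF-α and 5-OH-TMT, and the JUN family is mostly JUNB and is highest with 5-OH-TMT and in the knockdown.

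The genes around these factors were taken from 6 lists of 111 genes in all, 104 of them above the filter. The lists were written with earlier results of these data known, so no excess over all genes is read from their counts. With TNF-α against medium, given as a description, 12 were higher and 1 was lower by 2-fold or more. Over all genes, 4.97% passed that size in either direction. The largest were the secreted protease MMP9, from 0.0824 to 2.17 FPKM, and the neutrophil chemokine CXCL8, from 0.693 to 9.32 FPKM. For 5-OH-TMT against TNF-α, limma called 0 of the 104 and voom called 3, against 7 and 373 of all 18079 genes. An unadjusted p under 0.05 was found for 25 of the 104, against 20.1% of all genes. List medians on the log2 scale were 0.01 to 0.19, against 0 over all genes.

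In the knockdown against TNF-α, limma called 23 of the 104 higher and 7 lower, against 9.35% and 8.08% of all genes. The lower calls were near the background, and no excess is read from the higher calls because earlier results were known. The counts for each list below stand beside the same shares. Of 11 dimer partners, which pair with FOS or JUN proteins, 4 rose and none fell. ATF3, a stress-induced factor, rose from 7.25 ± 0.45 to 11.4 ± 0.41 FPKM, and MAFF, a small MAF protein, from 5.17 ± 0.43 to 7.11 ± 0.44 FPKM (SD, n = 3). BATF2 also rose, from 0.367 to 1.24 FPKM, and is named after its values were seen.

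Of 17 feedback regulators, 5 rose and 1 fell. DUSP6, a phosphatase of ERK, rose from 13.8 ± 0.74 to 23.5 ± 2.45 FPKM, DUSP16, a phosphatase of JNK and p38, from 3.71 ± 0.26 to 7.75 ± 0.41 FPKM, and SPRY4, an inhibitor of receptor tyrosine kinase signaling, from 1.21 ± 0.12 to 2.13 ± 0.24 FPKM. DUSP5 (12.7 to 18.9 FPKM) and DUSP8 (0.208 to 0.492 FPKM) also rose and ZFP36L2 fell (32.6 to 23.2 FPKM), named after their values were seen. Of 22 MAP kinases and related kinases, none rose and 2 fell, close to the share over all genes, MAPK12 (p38γ) from 10.9 ± 1.18 to 7.56 ± 0.06 FPKM and MAP2K1 (MEK1) from 26.7 ± 1.16 to 21.8 ± 1.46 FPKM. None of 10 SRF, ternary complex and EGR cofactors was called, and 2 had an unadjusted p under 0.05.

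Of 22 other immediate-early genes, 6 rose and 3 fell. BTG2, an antiproliferative gene, rose from 3.74 ± 0.22 to 7.87 ± 0.69 FPKM, whereas RHOB, a small GTPase, fell from 22.6 ± 3.37 to 10.1 ± 2.21 FPKM and KLF2, a zinc finger factor, from 2.79 ± 0.35 to 1.24 ± 0.04 FPKM. PHLDA1 was the third that fell, from 46.8 to 33.9 FPKM, named after its values were seen. Of 22 genes listed as AP-1 and EGR targets, 8 rose and 1 fell, and whether these factors drove the changes was not tested. CXCL8 rose from 9.32 ± 2.02 to 36.8 ± 8.98 FPKM, the urokinase gene PLAU from 55.6 ± 3.36 to 198.5 ± 3.96 FPKM and the adhesion molecule ICAM1 from 14.02 ± 0.58 to 49.4 ± 3.70 FPKM. IL6, an inflammatory cytokine, was the gene that fell, from 1.08 to 0.401 FPKM, named after its values were seen. The median log2 fold changes of the 6 lists ran from -0.01 to 0.23, against 0.00 over all genes.

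Against 5-OH-TMT, the knockdown had 26 of the 104 genes higher and 11 lower by limma, against 7.85% and 7.43% of all genes. The 37 calls became 16 without 5-OH-TMT replicate 2, 20 without 5-OH-TMT replicate 1, and 24 without knockdown replicate 1 or 2. ATF3 was higher by 0.56, DUSP16 by 0.96, BTG2 by 0.93, CXCL8 by 2.10, PLAU by 1.59 and ICAM1 by 1.31 on the log2 scale, while KLF2 was lower by 1.28 and RHOB by 1.19. Of the SRF, ternary complex and EGR cofactors, 3 of 10 rose: NAB1, a corepressor of EGR1, by 0.57, ELK4 by 0.48 and ELK3 by 0.33, the latter pair being ETS factors that join SRF on DNA. These values share the knockdown libraries with the comparison against TNF-α.

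**Figure D4:**
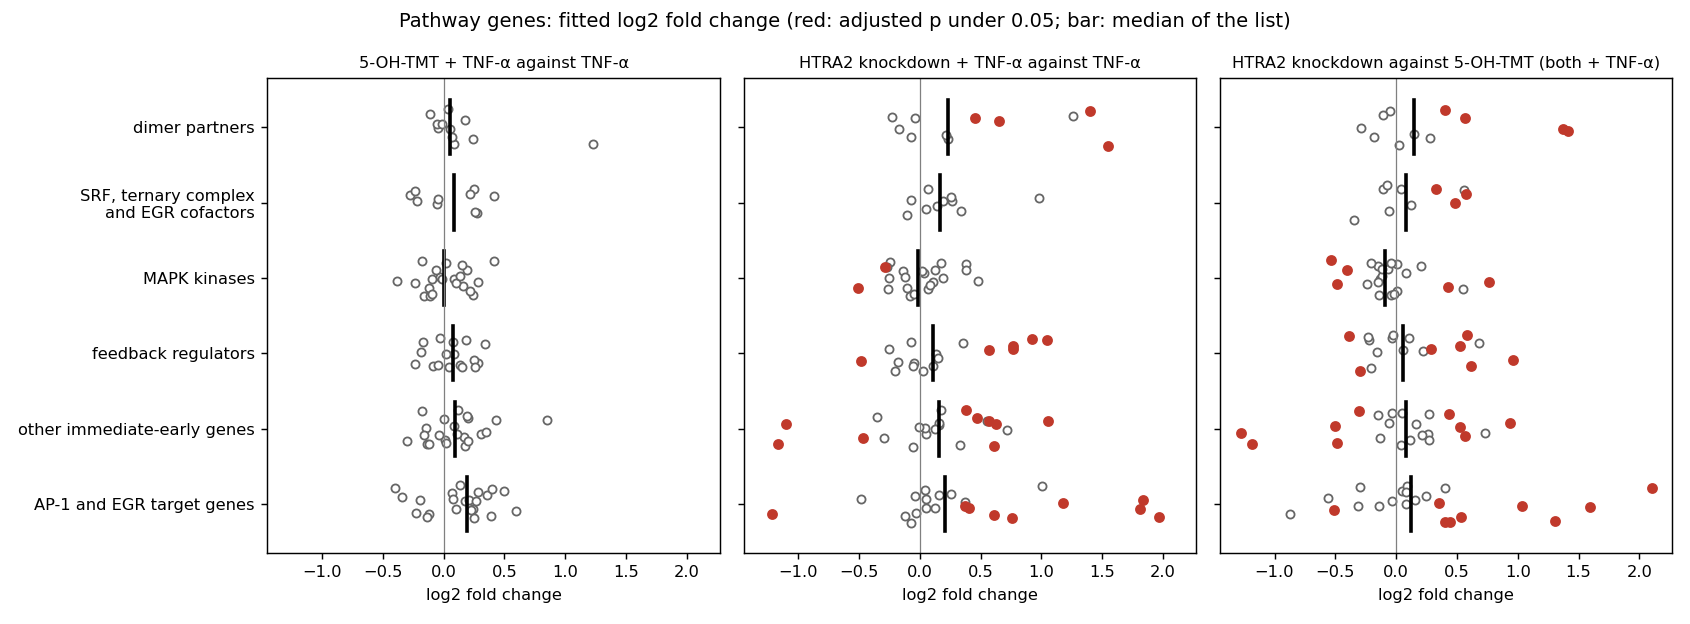
Fitted log2 fold change (horizontal axis) of the pathway genes above the filter, 1 point per gene, by list (rows) and comparison (panels). Filled red points passed an adjusted p of 0.05 and black bars are list medians. No point is red with 5-OH-TMT against TNF-α, and 30 are red in the knockdown against TNF-α.

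The genes whose pattern was most like FOS, EGR1 and EGR2 were ranked by Pearson's r of log2(FPKM + 0.1) over the 12 libraries among genes with a mean of at least 1 FPKM. The libraries form 4 groups, so r mostly reflects the order of the group means and is a description only. FOS and EGR1 were both named in the rule for their fall with TNF-α, so their likeness to each other partly reflects that choice. The genes nearest to FOS were ASAP3 (r = 0.961), EGR1 (0.958), LINC00857 (0.951), CEBPA (0.945) and FGD3 (0.940). For ASAP3 the group means were 9.78, 5.70, 7.26 and 5.61 FPKM in medium, TNF-α, 5-OH-TMT and knockdown. Those nearest to EGR1 were LINC00857 and FOS (both 0.958), NFE2 (0.952), EPB41L1 (0.938) and BTBD11 (0.911). Those nearest to EGR2 were RNF114 (0.981), RARRES3 (0.968), PSAP (0.961), IFI27 (0.957) and METRNL (0.955), and IFI27, an interferon-induced gene, had means of 3.12, 4.73, 5.87 and 26.8 FPKM.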

How the data were processed

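RNA of NCM460 cells was extracted with Trizol and poly-T selected, and libraries were made with a NEBNext Ultra RNA kit. The authors deposited 1 table that gives FPKM and gene length for each gene, with a column for each library. The submitters' processing notes name CASAVA 1.8, HISAT2 2.0.4, HTSeq 0.9.1 and hg38, without their roles, and the strandedness of the counting is not given in the sources used here. Of the genes, 99.981% carried GENCODE 29 coordinates. Whole reads were recovered from FPKM and length, and 100% of values came out whole within 0.05.

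In R 4.3.3 with limma 3.58.1, log2(FPKM + 0.1) was modelled by group in 1 fit to the 18079 genes that averaged 0.1 FPKM or more, using eBayes with trend, two-sided tests and Benjamini-Hochberg adjustment over all genes. A gene was called at an adjusted p under 0.05. EGR3 was taken from a fit without the filter. An exact permutation test of 3 libraries against 3 cannot go below 0.1 and is not quoted. FPKM are not counts, so the count test was an alternative only: voom with trimmed-mean factors on the recovered reads. Named genes were all members and, in each list and contrast, at most 3 called genes with a mean of at least 1 FPKM, no overlap and the largest change, plus the 5 genes most like FOS, EGR1 and EGR2. The fit was tested on simulated data with larger changes than those of JUNB and FOSL1, in genes with more mean reads than EGR2 or EGR3. It does not bear on changes as small or counts as low as theirs. The members and the lists were chosen with earlier results of these data known. Promoter windows came from RefSeq (GRCh38.p14).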

Additional observations from a re-analysis of the deposited data

How the results depend on the processing

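Each value was recomputed under 10 alternatives with all libraries and in 12 fits that left out 1 library. The calls of EGR2, JUNB and FOSL1 in the knockdown against TNF-α, and of EGR2 and FOSL1 against 5-OH-TMT, held in each fit that tested the gene. With 5-OH-TMT against TNF-α, the members called were 0, but 2 with a mean FPKM of at least 1, 3 with voom, 2 in a fit to these groups alone, and 0 to 3 with 1 library left out (3 without knockdown replicate 2). Genes called were 7, but 3 with a pseudocount of 1, 127 with a mean FPKM of at least 1, 4 with quantile normalization, 1 without the trend, 373 with voom, 911 in a fit to these groups alone, and 1 to 551 with 1 library left out (551 without knockdown replicate 2, 85 without medium replicate 2, 4 or fewer in 7 others). List genes called were 0, but 1 with a mean FPKM of at least 1, 3 with voom, 7 in a fit to these groups alone and 0 to 2 with 1 library left out. DEGs with a pseudocount of 1 and with a mean FPKM of at least 1 were 14 and 32 (5-OH-TMT, 271 in the reported fit), 155 and 259 (knockdown, 764) and 101 and 185 (knockdown against 5-OH-TMT, 576). With 1 library left out, genes called were 2015 to 3518 in the knockdown (2015 without knockdown replicate 1, 2062 without TNF-α replicate 2), and 1314 to 3213, with 16 to 38 list genes, against 5-OH-TMT (1314 and 1416 without 5-OH-TMT replicates 2 and 1, 1757 and 1770 without knockdown replicates 1 and 2). Directions turned only among uncalled values: FOSL1 with 5-OH-TMT was -0.0191 under quantile normalization and -0.0898 to 0.198 with 1 library left out, FOSB -0.0445 to 0.189, and, between knockdown and 5-OH-TMT, JUNB 0.0600 under quantile normalization and -0.0451 to 0.0452, and FOSL2 -0.104 to 0.0340. EGR2 and FOSB could not be fitted with a mean FPKM of at least 1. The cause of these shifts was not tested.

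Same-numbered libraries did not deviate together (correlations of -0.05 to 0.04 over 18079 genes), so the replicate numbers were not taken to pair the libraries. With the replicate block, 1 gene was called with 5-OH-TMT against TNF-α, 2660 in the knockdown and 2062 against 5-OH-TMT, and EGR3 in the knockdown had an adjusted p of 0.0509 (limma).

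Depth limits FOSB, EGR2 and EGR3, with 0 to 97 reads a library.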
